A study of Mus musculus with 15 samples.

Results

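The polyamine genes described here are 7 named genes: Odc1, Srm, Sms, Amd1, Oaz1, Azin1 and Sat1. They were chosen by name, out of 22219 protein-coding gene symbols of the GENCODE vM1 annotation on the mouse build mm9, and all 7 were found there. Chromatin immunoprecipitation with sequencing (ChIP-seq) had been made for Myc (antibody N262) and RNA polymerase II (RNAPII, antibody N20) in 3T9-MycER cells, fibroblasts derived from mouse embryos at E13.5. These cells are homozygous for a floxed c-myc allele and were infected in vitro with a pBabe bleomycin construct that carries MycER, a fusion of Myc that 4-hydroxytamoxifen (OHT) activates. Each factor has 1 library before OHT (0 min) and 5 after 10, 20 or 30 min, 2 h or 4 h in 400 nM OHT. Every fibroblast sample, 0 min included, carries both the floxed alleles and MycER, and Myc peaks of the endogenous protein and of the fusion cannot be told apart in these lists. The zinc finger protein Miz1, product of Zbtb17, was mapped with the home-made antibody 10E2 in these fibroblasts before activation and in B cells, taken with B220 magnetic beads from the spleens of wild-type C57BL/6 mice aged 6 to 8 weeks.

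With 1 library in each group there are no replicates, and differences between times are given as values without a test. The deposited data are 20 peak lists: 6 for Myc, 6 narrow and 6 broad lists for RNAPII, and 2 for Miz1. The Myc libraries held 28132063 to 33431447 tags. The RNAPII libraries held 15276996 tags at 0 min, the shallowest, and 36396286 at 20 min, the deepest. A promoter peak is one that overlaps by at least 1 bp the 1000 bp either side of a transcription start site (TSS) of the gene. As a check of the cell type, 9 of 10 fibroblast markers (without Thy1) had an RNAPII promoter peak at 0 min, against 1 of 8 B cell markers (Ebf1), 2 of 6 markers of T cells and myeloid cells (Lck and Cd14) and 0 of 4 epithelial markers. Over all genes the share was 47.5%.

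Polyamines are small positively charged molecules that bind nucleic acids and that growing cells need. Ornithine decarboxylase, encoded by Odc1, makes putrescine, and the synthases encoded by Srm and Sms turn it into spermidine and then spermine, using a donor that the S-adenosylmethionine decarboxylase of Amd1 supplies. Antizyme, encoded by Oaz1, steers ornithine decarboxylase to degradation, the antizyme inhibitor encoded by Azin1 counters it, and the acetyltransferase encoded by Sat1 starts polyamine breakdown and export. Odc1 is a textbook target of Myc, which binds DNA with its partner Max at the E-box CACGTG.

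The places of the E-boxes relative to the Myc peaks set the 7 genes apart from each other, so the stretches that hold them are printed here from the mm9 sequence. Each reads 5′ to 3′ on the strand of its gene, and capitals mark CACGTG, or CACGCG at Oaz1. The Odc1 stretch is chr12:17551995-17552174 (plus strand), in the first intron, and it also holds the Myc summits of all 6 lists. The Srm stretches are chr4:147965412-147965462, which holds the 6 Myc summits, and chr4:147965948-147966092 in the first intron, both on the plus strand. The Amd1 stretch is chr10:40020542-40020807 (minus strand), in the first intron, and it holds the 6 Myc summits and both Miz1 summits.
Odc1 intron: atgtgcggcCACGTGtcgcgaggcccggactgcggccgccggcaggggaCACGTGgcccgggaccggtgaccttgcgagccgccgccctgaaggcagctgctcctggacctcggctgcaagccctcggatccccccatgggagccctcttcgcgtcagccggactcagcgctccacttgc
Srm promoter: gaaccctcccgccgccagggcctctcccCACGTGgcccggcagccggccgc
Srm intron: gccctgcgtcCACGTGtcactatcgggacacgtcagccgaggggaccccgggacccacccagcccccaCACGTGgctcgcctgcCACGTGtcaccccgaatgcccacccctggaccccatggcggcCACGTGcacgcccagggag
Amd1 intron: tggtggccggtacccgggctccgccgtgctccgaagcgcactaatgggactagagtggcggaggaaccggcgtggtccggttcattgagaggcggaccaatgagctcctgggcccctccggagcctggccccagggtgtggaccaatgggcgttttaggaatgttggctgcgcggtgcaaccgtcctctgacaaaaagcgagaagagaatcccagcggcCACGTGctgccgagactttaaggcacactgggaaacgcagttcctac

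The other 4 genes are shown for contrast, since their Myc summits lay away from any CACGTG. They are chrX:153930389-153930434 (Sms, minus strand), chr15:38448649-38448678 (Azin1, minus strand, at the end of exon 1 in the untranslated region), chr10:80289171-80289216 (Oaz1, plus strand) and chrX:151651082-151651142 (Sat1, minus strand). The Sat1 stretch holds the Myc summits of all 6 lists and neither motif.
Sms promoter: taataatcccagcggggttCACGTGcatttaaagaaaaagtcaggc
Azin1 exon: gggccgttatctCACGTGagtaccggactt
Oaz1 promoter: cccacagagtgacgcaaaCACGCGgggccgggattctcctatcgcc
Sat1 promoter: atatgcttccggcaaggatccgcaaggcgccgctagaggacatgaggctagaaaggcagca

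All 7 polyamine genes had a Myc promoter peak in each of the 6 Myc lists, before OHT as well as after it. Such a peak in all 6 lists was present at 43.3% of all protein-coding genes and at 87.7% of the 10544 genes with a narrow RNAPII promoter peak at 0 min, so presence did not set these genes apart. They differed from each other in the height of the peak. Fold enrichment is the authors' value for ChIP tags over local background, and it ranks genes only within its own list. Each gene was therefore given its percentile among the genes with a Myc promoter peak in the list.

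Srm, the spermidine synthase gene (ENSMUSG00000006442.10, chr4:147965612-147968728), had the highest Myc peak of the 7 by fold in every list. Its fold enrichment was 58.2 at 0 min, 93.3 at 10 min, 93.2 at 20 min, 81.8 at 30 min, 89.1 at 2 h and 92.9 at 4 h. Its percentile stayed between 98.7 and 99.6, and at 4 h it was the 40th of 10378 genes.

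Odc1, for the first enzyme of the pathway (ENSMUSG00000011179.6, chr12:17551679-17558308), had folds of 22.4, 41.9, 50.6, 44.0, 56.0 and 49.1 at the same times. Its percentiles were 80.7, 87.0, 89.3, 90.0, 89.8 and 91.8, with the lowest at 0 min. Amd1, for the decarboxylase that feeds both synthases (ENSMUSG00000075232.3, chr10:40007265-40021992), had folds of 37.7, 54.6, 57.0, 39.8, 57.6 and 30.7. Its percentiles were 95.1, 93.8, 92.6, 86.9, 90.5 and 76.7, with the lowest at 4 h. Sms, for spermine synthase (ENSMUSG00000071708.5, chrX:153881787-153930219), had folds of 10.5, 22.5, 23.4, 20.6, 28.6 and 21.2, and percentiles of 35.0, 61.5, 57.4, 58.5, 61.7 and 58.3. The spermine synthase gene thus stood lowest of the 4 enzyme genes of synthesis in every list.

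The regulators and the breakdown enzyme had lower peaks than Srm, Odc1 and Amd1 by fold. Sat1 (ENSMUSG00000025283.9, chrX:151647675-151650992) had folds of 14.6, 27.1, 30.9, 18.0, 33.2 and 20.3 and percentiles from 51.3 at 30 min to 71.3 at 20 min. Azin1 (ENSMUSG00000037458.8, chr15:38417185-38449021) had folds of 12.8, 20.5, 21.7, 15.9, 21.7 and 17.0 and percentiles from 43.8 to 56.1. Oaz1 (ENSMUSG00000035242.8, chr10:80289401-80292035) had the lowest fold of the 7 in every list, with values of 9.46, 10.5, 11.6, 11.6, 14.3 and 11.8 and percentiles from 18.7 to 28.5. This order depends on the measure. By the number of tags in the peak, Azin1 stood above Odc1 in all 6 lists, with percentiles of 91.2 and 73.1 at 4 h, and Sat1 rather than Oaz1 was lowest in all 6, with 22.5 and 32.6 at 4 h. By the p-value score at 0 min, Azin1 stood at 83 and Odc1 at 73.6, and Sat1 at 23.3 and Oaz1 at 40.7. This did not hold in every list. By the score Oaz1 stood below Sat1 at 10 min, 20 min and 2 h, with 33.4 and 38.7 at 2 h. Odc1 stood at 99.2 at 2 h, above Srm, Amd1 and Azin1, which shared 75.9. Srm and Amd1 also shared a percentile by the score at 10 min, 20 min and 30 min.

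**Figure D1:**
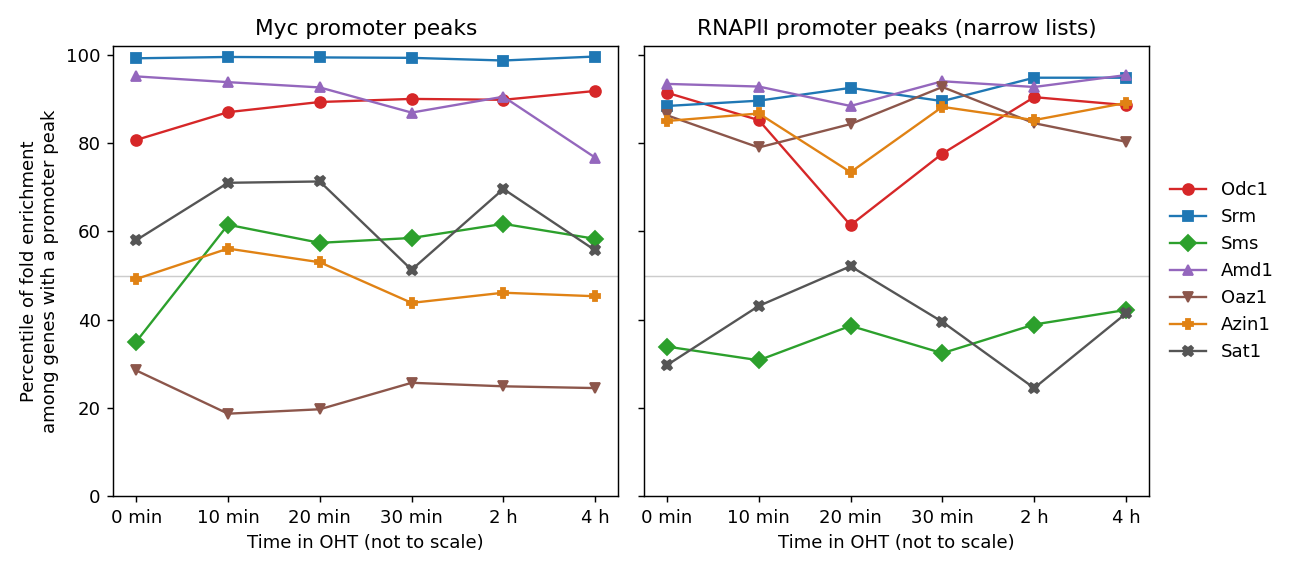
Percentile of the fold enrichment of each polyamine gene's promoter peak (y axis, percent of genes with a promoter peak in that list that had a lower fold) at 6 times of OHT (x axis, not to scale), for Myc on the left and for the narrow RNAPII lists on the right, 1 library per time. For Myc, Srm lies at 98.7 to 99.6 and Oaz1 at 18.7 to 28.5, while for RNAPII Oaz1 lies at 79.0 to 92.7 and Sms and Sat1 lie lowest.

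Srm carried the most E-boxes. Within 1000 bp of its TSS it had 5 CACGTG sequences, a number reached or passed by 10 of 22219 genes (0.045%). At least 1 was present at 5 of the 7 polyamine genes, against 27.9% of all genes, and at least 2 at Odc1, Srm and Azin1, against 5.7%. Among the 10378 genes whose promoters carried a peak in the 4 h Myc list, as all 7 did, these shares were higher. They were 34.9% for at least 1 CACGTG, 8.35% for at least 2 and 0.0675% for at least 5. CACGTG reads the same on both strands. Oaz1 and Sat1 had none in that window. Negative positions are upstream of the TSS. The nearest one to the Oaz1 TSS started at −1353 bp, outside its Myc peaks, and none was found within 3000 bp of the Sat1 TSS. The variant CACGCG, read on both strands, was present within 1000 bp of a TSS at 33.4% of genes and at 5 of the 7, all but Srm and Sat1, with 3 at Amd1.

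The Myc summit lay on an E-box at Srm and Amd1 and beside a pair of them at Odc1. In the Srm promoter stretch printed above, the centre of CACGTG was 4 to 18 bp from the summit in the 6 lists. At Amd1 it was 2 to 38 bp away, in the first intron. With a window of 200 bp around the summit, Srm and Amd1 held CACGTG in every list, and Odc1 only at 10 min. Over all genes with a Myc promoter peak the share was 18.8% at 0 min, 17.9% at 10 min, 17.4% at 20 min, 17.9% at 30 min, 17.6% at 2 h and 17.5% at 4 h. The Odc1 summits lay 78 to 120 bp downstream of the nearer E-box, so a window of 400 bp counted Odc1 in all 6 lists.

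At Sms the nearest CACGTG, at −196 bp, was 170 to 254 bp from the summits, and a window of 400 bp reached it at 10 min, 2 h and 4 h. At Azin1 it was 570 to 652 bp away. The 4 intronic E-boxes of Srm lay inside all 6 Myc peaks but at least 346 bp downstream of the TSS, whereas the summits lay between −188 and −160 bp.

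The place of the summit was steady at some genes and not at others. Over the 6 lists it moved by 28 bp at Srm, 43 bp at Odc1 and at Sat1, 58 bp at Amd1, 84 bp at Sms, 151 bp at Azin1 and 272 bp at Oaz1, against a median of 114 bp over 9623 genes. At Oaz1 it lay at −203 bp at 0 min, at −122 bp at 10 min and 22 to 69 bp downstream of the TSS in the other 4 lists. Amd1 was the only 1 of the 7 with its Myc summit more than 1000 bp downstream of the TSS, at 1386 to 1444 bp. That was the case at 3.47% of genes with a Myc promoter peak at 0 min and at 4.09% at 4 h.

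**Figure D2:**
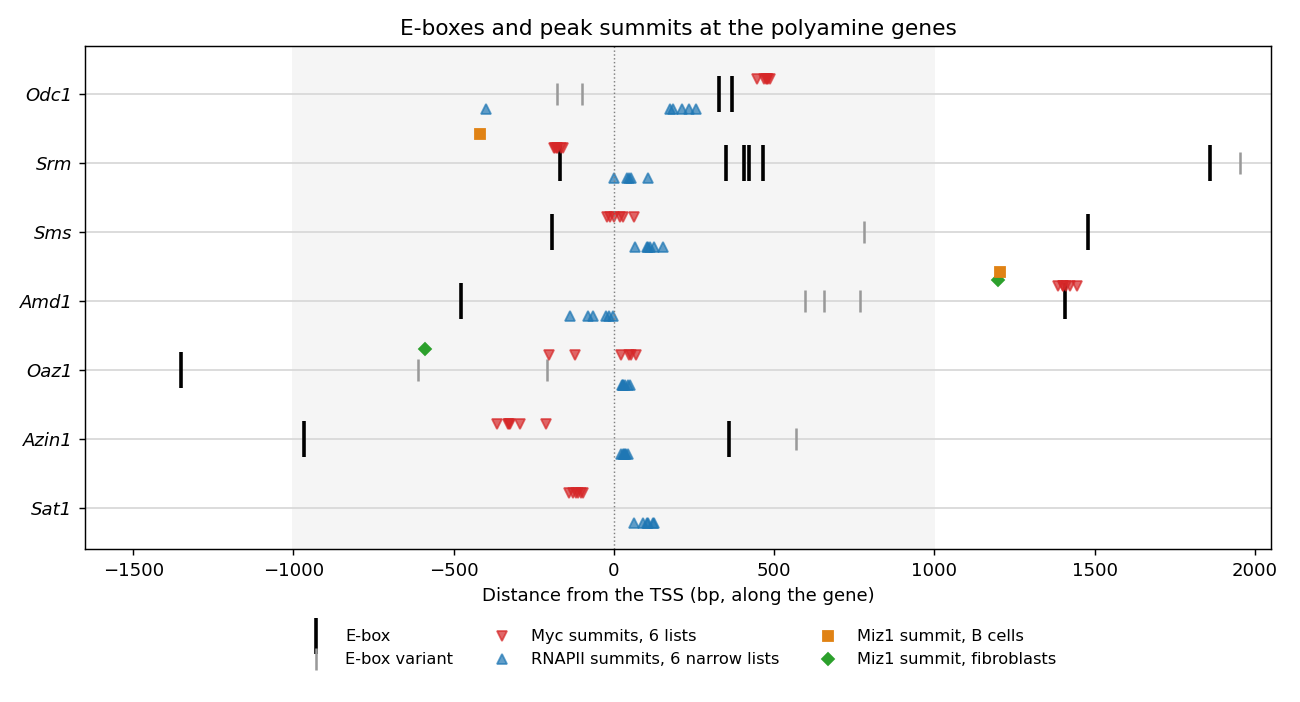
Places of E-boxes (black bars, CACGTG), their variant (grey bars, CACGCG), Myc summits of 6 lists (red triangles), narrow RNAPII summits (blue triangles) and Miz1 summits in fibroblasts (green diamonds) and B cells (orange squares), by distance from the TSS in bp along each gene; the shaded band is the 1000 bp either side. Myc summits lie on an E-box at Srm and Amd1 and next to 2 of them at Odc1, while Sat1 has none; the 20 min RNAPII summit of Srm, 35174 bp away, is outside the plot.

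Inside the fibroblast Myc peaks lay fibroblast Miz1 summits at Oaz1 and Amd1, and B cell Miz1 summits at Srm and Amd1. Over the genes with a Myc promoter peak at 0 min, 17.1% of these peaks held a fibroblast Miz1 summit and 10.1% a B cell one. In fibroblasts Oaz1 was the only 1 of the 7 with a Miz1 promoter peak (8.25% of all genes), with its summit at −591 bp and a fold of 9.13. In B cells it was Srm (5.48% of all genes), with a summit at −417 bp and a fold of 8.14, below the median fold of that list (8.92). These lists were called at different cutoffs, with p of 0.01 in fibroblasts and 1e-05 in B cells, and from 10164509 and 24237295 tags.

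At Amd1 both cell types had a Miz1 summit at nearly the same place, outside the promoter window but inside the Myc peak. It lay 1197 bp downstream of the TSS in fibroblasts, with a fold of 5.96, and 1205 bp downstream in B cells, with a fold of 7.75. The fibroblast call was weak, with a −log10 p of 4.93, short of the cutoff of 1e-05 used for B cells. The B cell peak had a −log10 p of 14.21, past that cutoff, but its fold was below the median of its list, 8.92. The Myc 0 min promoter peak held Miz1 summits of both cell types at 5.16% of the 9929 genes with such a peak. In the Amd1 stretch printed above the Miz1 summits fall near its start and the Myc summits near its end, around the E-box. For the other 4 genes the nearest Miz1 summit in fibroblasts was 43769 bp away at Azin1 and 277203 bp or more away at Odc1, Sms and Sat1.

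The RNAPII lists also held a peak at that place in Amd1. In the broad lists, whose peaks are in fact shorter than those of the narrow lists (median length 787 to 854 bp against 2616 to 3174 bp), Amd1 had a second peak apart from the one at the TSS. Its summit lay 1196 to 1307 bp downstream, with folds of 39.3 at 0 min, 40.1 at 10 min, 37.3 at 20 min, 41.9 at 30 min, 27.5 at 2 h and 38.2 at 4 h. The TSS peak was higher in each list, with folds of 53.1, 49.9, 41.9, 56.1, 43.5 and 52.7. In the narrow lists a single peak covered both places.

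All 7 genes had an RNAPII promoter peak in all 6 narrow lists (43.5% of all genes) and in all 6 broad lists (41.3%). At 0 min the narrow folds were 68.5 at Amd1, 62.5 at Odc1, 57.3 at Srm, 54.3 at Oaz1, 52.7 at Azin1, 22.7 at Sms and 20.9 at Sat1. By fold the first 5 stood at percentiles 85.0 to 93.4 and the X-linked genes Sms and Sat1 at 33.9 and 29.7. At 4 h the 5 stood at 80.3 to 95.4 and Sms and Sat1 at 42.2 and 41.4. By the p-value score this split was absent at 0 min, where Azin1 stood at 16.6 and Srm at 34.4, beside Sat1 at 18.9 and Sms at 32. By the same score Azin1 stood at 2.77 at 2 h and at 91.1 at 4 h. By tags in the peak Azin1 stood at 98.4 and Srm at 99.1 at 0 min, with Sms at 36.4 and Sat1 at 19.3. Azin1 stood by tags at 97.9 at 2 h and 91.9 at 4 h. The Azin1 peak was 38200 bp long at 0 min, 38396 bp at 2 h and 11144 bp at 4 h. The Srm peak was 37677 bp long at 0 min and 38486 bp at 2 h, where Srm stood at 87.9 by the score. The part of peak length in these scores was not tested.

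Oaz1 thus had low Myc and high RNAPII peaks within their lists, with percentiles of 24.5 and 80.3 at 4 h. Odc1 stood at 91.4 at 0 min, 85.2 at 10 min, 61.4 at 20 min, 77.6 at 30 min, 90.4 at 2 h and 88.6 at 4 h for RNAPII. Its summit lay 175 to 257 bp downstream of the TSS in 5 lists and at −400 bp at 20 min. The 20 min library is the deepest, and the part of depth in this was not tested. At Srm 1 narrow peak of 37677 to 38486 bp, in every list but that of 4 h, also held the TSSs of Masp2 and Tardbp. At 20 min its summit lay 35174 bp from the Srm TSS, so the fold of that list, 58.7, is not a value of the Srm promoter.

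In the narrow lists RNAPII peaks ran along most of the body of 5 of the 7 genes. Cover was measured over the gene body, taken from 1000 bp after the start to the end, as the percent of bases under a peak. The median cover of the 7 genes was 83.3% at 0 min, 92.3% at 10 min, 100% at 20 min, 96.1% at 30 min, 100% at 2 h and 91.8% at 4 h. Over the 10084 genes of at least 2000 bp with an RNAPII promoter peak at 0 min the median was 4.99% at 0 min, 9.5% at 10 min, 6.19% at 30 min, 7.53% at 2 h and 5.44% at 4 h, and it was highest, though under 20%, at 20 min. The bodies of Srm, Azin1 and Oaz1 were covered over 96.1% or more in each narrow list. The set of 10084 genes was not matched for gene length. The bodies of Oaz1 (1635 bp) and Srm (2117 bp) were shorter than the median narrow peak. So was that of Sat1 (2318 bp), which had little cover.

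Odc1 was covered over 69.2% at 0 min, 91.5% at 10 min, 100% at 20 min, 30 min and 2 h, and 81.0% at 4 h. It was more than 20 points above its 0 min value at 10 min, 20 min, 30 min and 2 h, and not at 4 h. Over the same 10084 genes the share with such a difference was 13.1%, 22%, 9.34%, 10.7% and 7.49% at the 5 later times. At 0 min 3 separate narrow peaks lay over Odc1 and its end, and at 20 min, 30 min and 2 h a single peak of 11486 to 11744 bp ran from before the TSS to 3059 to 3332 bp past the gene end. The RNAPII library of 30 min held 16274905 tags, against 15276996 at 0 min, so this pair of libraries was of similar depth. When each list was held to 17933 peaks, the number in the shortest, the Odc1 cover was again 69.2% at 0 min and 100% at 30 min. These 2 lists held 18877 and 18676 peaks, so few were removed and this could hardly have changed the cover. Equal numbers of peaks do not make the tags equal, and the part of depth was not tested.

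Amd1 was covered over 83.3% at 0 min and 91.8% to 94.2% later. Its narrow peaks also covered all of the 5000 bp past the gene end at each time, as did those at Srm. Sms, the longest of the genes, was covered over 3.5% at 0 min, 22.4% at 10 min, 77.4% at 20 min, 18.6% at 30 min, 18.4% at 2 h and 11.7% at 4 h. The high Sms value came from the deepest library, where 9 separate peaks overlapped the gene, and it was 61.8% when each list was held to the same number. Sat1 had 0.949% at 0 min, 7.72% at 10 min, 9.66% at 20 min, 9.45% at 30 min, 9.62% at 2 h and 2.46% at 4 h, and no cover past its end.

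**Figure D3:**
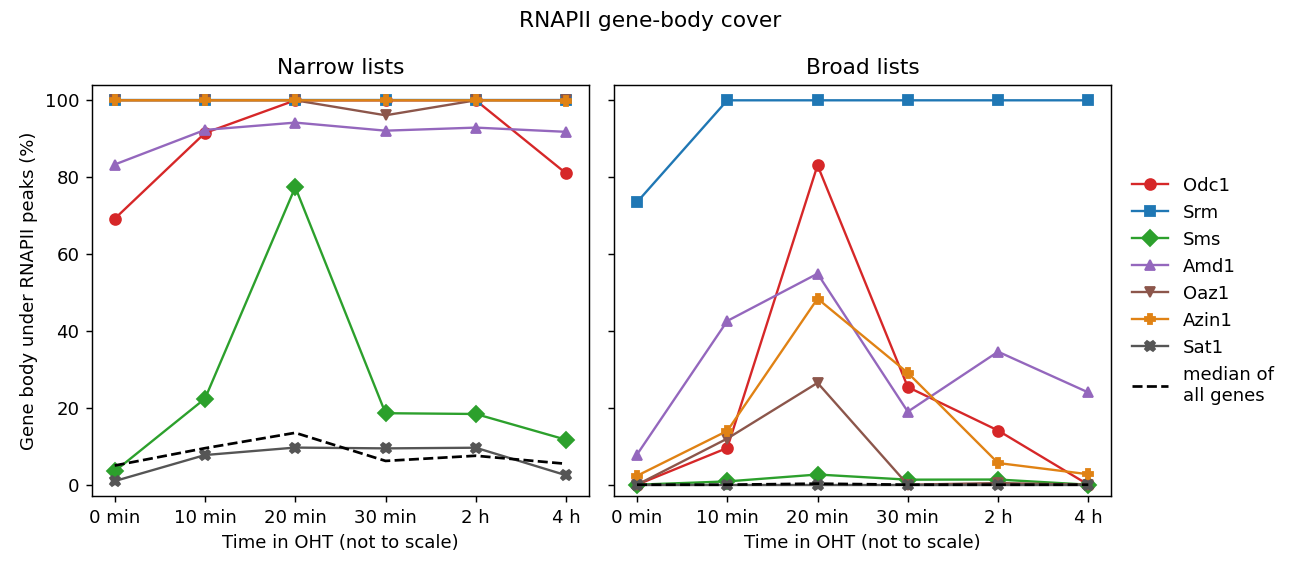
Gene-body cover by RNAPII peaks (y axis, percent of bases past the first 1000 bp) at 6 times of OHT (x axis, not to scale), in the narrow lists on the left and the broad lists on the right; coloured lines are the 7 genes, the dashed line is the median of 10084 genes, and there is 1 library per time. Srm, Azin1 and Oaz1 overlap near 100% on the left, and on the right Odc1 goes from 0% at 0 min to 83.1% at 20 min and back to 0% at 4 h.

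The broad lists gave lower cover, and a different picture for single genes. Odc1 had 0% at 0 min, 9.56% at 10 min, 83.1% at 20 min, 25.4% at 30 min, 14.1% at 2 h and 0% at 4 h. Srm had 73.5% at 0 min and 100% in the other 5 lists. Amd1 had 7.85%, 42.6%, 54.9%, 19.0%, 34.6% and 24.0% in the order of time. These 3 genes of synthesis therefore had their lowest broad cover at 0 min, a value that Odc1 had again at 4 h. None of the other genes fell below its 0 min value either. Over the 10084 genes the mean broad cover was also lowest at 0 min, at 6.07%, against 12.6% at 20 min and 6.75% at 4 h. The 0 min library is the shallowest, and the part of depth in this was not tested.

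Azin1, fully covered in 5 narrow lists and just short of it at 4 h, had 2.32%, 14%, 48.4%, 29.1%, 5.64% and 2.72% in the broad lists. Oaz1 had 0%, 12%, 26.5%, 0%, 0.428% and 0%, Sms had at most 2.65% and Sat1 had 0% at each time. Cover was highest at 20 min, in the deepest library, at Odc1, Amd1, Azin1, Oaz1 and Sms. With each broad list held to 17898 peaks, the 20 min values were 68.6% at Odc1, 30.5% at Amd1 and 17.0% at Azin1. The part of depth in the 20 min values was not tested beyond this.

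At 30 min broad cover was more than 20 points above 0 min at Odc1, Srm and Azin1 (3.27% of the 10084 genes). At 4 h this was so at Srm alone (2.61%). At 20 min, in the deepest library, this held for 5 genes, all but Sms and Sat1 (11.2%). With each list held to 17898 peaks it held there for 4, since Azin1 had 17% against 2.32% at 0 min. It held at 10 min for Srm and Amd1 (4.16%) and at 2 h for the same 2 genes (4.05%).

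**Figure D4:**
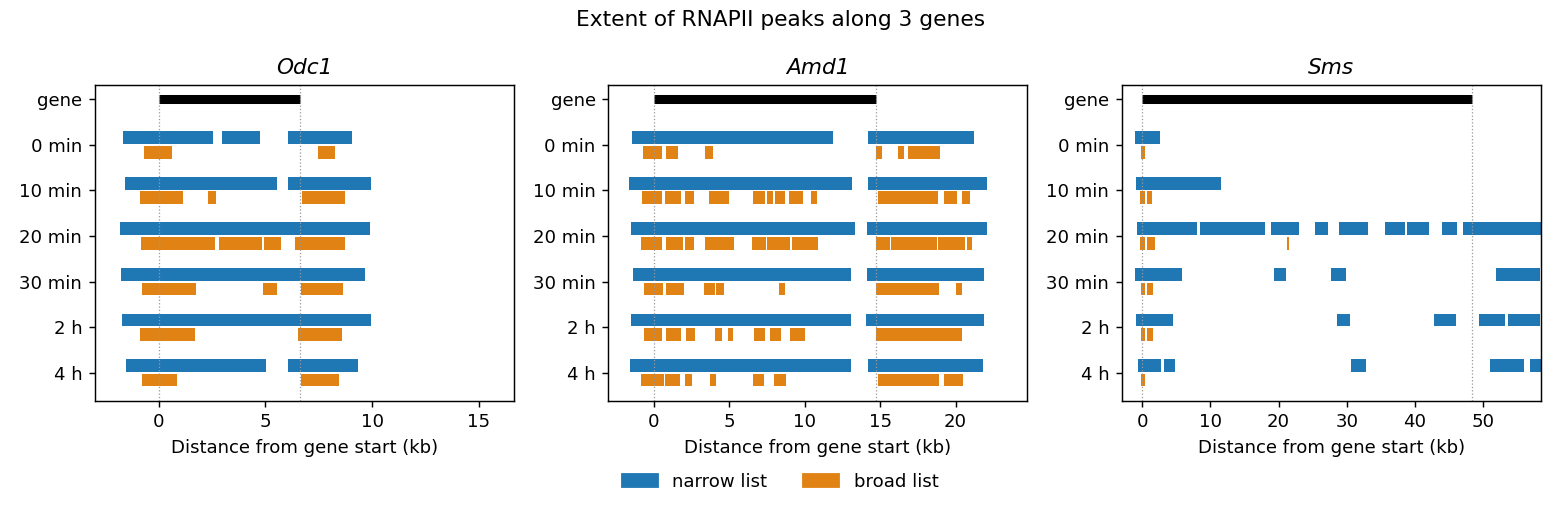
Extent of RNAPII peaks along Odc1, Amd1 and Sms by distance from the gene start (x axis, kb), with 1 row per time; black bars are the genes, blue bars the narrow and orange bars the broad peaks. At Odc1 the narrow peaks at 0 min and 4 h leave gaps that single peaks span at 20 min, 30 min and 2 h, and at Sms most of the gene is covered only in the 20 min narrow list.

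Outside the promoters, called Myc peaks were few. Oaz1 had a second one in all 6 lists, between −4462 and −4417 bp, with folds of 9.5 to 14.8, and another at 2 h only, at −8483 bp, with a fold of 7.34. Azin1 had one between −3774 and −3685 bp at 20 min, 2 h and 4 h, and Sms one 3195 to 3275 bp downstream at 20 min and 2 h.

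Genes around the pathway were bound less evenly. Of 30 genes listed for polyamine and related metabolism 29 were matched, Oaz2 being the one that was not. A Myc promoter peak was present at 18 of the 29 at 4 h (46.7% of all genes), and an RNAPII promoter peak at 18 at 0 min (47.5% of all genes). The highest Myc folds at 4 h were those of Eif5a, whose protein receives hypusine, a residue made from spermidine (91.2), Slc7a1, a transporter of arginine and lysine (83.2), and Mri1, an enzyme of methylthioadenosine salvage (62.2). All 5 salvage genes, which recycle the by-product of Srm and Sms, had both peaks, and so did 3 of the 4 hypusination genes, where Eif5a2 had Myc without RNAPII at 0 min.

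Without a Myc peak at 4 h were Oaz3, Sat2, Satl1, Smox, Arg1, Arg2, Agmat, Mat1a, Atp13a2, Slc18b1 and Amd2. Of these only Atp13a2, a lysosomal polyamine transporter, had RNAPII at 0 min, with a fold of 10.6. Amd2, the second decarboxylase locus, had no Myc, RNAPII narrow or Miz1 promoter peak in any list. In fibroblasts Miz1 was present at Mat2b, a subunit of the enzyme that makes S-adenosylmethionine (5.96-fold). Miz1 was also present there at Slc3a2, a heavy chain of amino acid transporters (12.4-fold), and at none of the 29 in B cells. A Miz1 promoter peak was present at 8.25% of all genes in fibroblasts and at 5.48% in B cells, so these counts did not set the 29 apart.

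Among 8814 genes with promoter peaks in all 6 Myc and all 6 narrow RNAPII lists, those most like Odc1 were found by the mean absolute difference in percentile over the 12 lists. The nearest were Pan3 (4.07 points), Seh1l (4.09), Nek8 and Tlcd1 (4.12 each, over shared peaks) and Timm17a (4.33). Of the polyamine genes Amd1 was nearest to Odc1, at 8.81 points, followed by Srm at 10.7, Azin1 at 22.6, Sat1 at 34.7, Oaz1 at 37.5 and Sms at 39.5.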

How the data were processed

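The submitters' processing notes name BWA 0.6.2-r126, MACS2 2.0.9 and the build mm9. Per the file headers, each list is a call on a single library, made with MACS 1.4.2 for Myc and for narrow RNAPII (p cutoff 1e-08) and with MACS 2.0.9 for broad RNAPII and Miz1. The deposited values are the raw count of tags in a peak, the fold enrichment as a ratio over the local background, a score that grows as p falls (MACS 1.4.2) or −log10 p (MACS 2.0.9), the pileup signal and, in MACS 1.4.2 lists, a false discovery rate in percent, which was not used. Tags and folds are not comparable between lists, and a deeper library lets weaker peaks pass.

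Genes were taken from GENCODE vM1. Where several promoter peaks met, the one of highest fold was used. Percentiles, distances, motif counts and cover were computed with Python 3.11.15, pandas 2.3.3 and pysam 0.24.0. The presence of promoter peaks, the percentiles and the cover were tested on simulated peaks, and the motif counts were not. The genes and gene lists were chosen with earlier results of these data known. Named genes were the 7 genes, listed relatives without Myc at 4 h or RNAPII at 0 min, the 3 relatives of highest Myc fold and the 5 genes most like Odc1. The input library was not analysed here. Alternatives changed windows, TSSs, ranking, peak strength and gene extent.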

Additional observations from a re-analysis of the deposited data

How the results depend on the processing

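Counts of genes with Myc or RNAPII promoter peaks stayed at 6 or 7 of 7 under every alternative tried. The gene left out was Amd1 when the Myc summit had to lie in the window, Oaz1 with the Myc peaks above the median fold (not at 2 h), and Srm when the RNAPII summit or midpoint had to lie in the window (narrow list of 20 min and the 5 broad lists after 0 min). With 2000 bp either side, 2 genes had Miz1 in fibroblasts (Oaz1 and Amd1) and 2 in B cells (Srm and Amd1), and with peaks above the median fold 0 had it in B cells. CACGTG in 400 bp around the summit was present at 4 genes at 2 h and at 4 at 4 h, against 2 in 200 bp.

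The median percentile depends on the measure, and the cause was not tested. For Myc it was 58.0, 71.0, 71.3, 58.5, 69.6 and 58.3 from 0 min to 4 h by fold, and 73.6, 77.5, 77.9, 80.3, 75.9 and 81.3 by the p-value score. By tags it moved to 65.5 (0 min), 72.5 (30 min), 71.8 (2 h) and 73.1 (4 h). Among all peaks of the list, a wider set, it was 73.9, 84.9, 86.1, 77, 86.2 and 76.6. For RNAPII it was 86.3, 85.2, 73.4, 88.2, 85.2 and 88.6 by fold, and 34.4, 69.9, 52.9, 82.2, 80.8 and 89.9 by the score. By tags it moved to 82.1 (10 min), 81.5 (20 min), 86.5 (30 min) and 84.6 (4 h), and among all peaks to 93.9, 93.9, 90.3, 95, 93.5 and 94.9. By the p-value score Srm, Amd1 and Azin1 shared a Myc percentile of 82.9 at 20 min and of 75.9 at 2 h. Genes of equal score get the same percentile, so no order among them can be read. The Myc median of 75.9 at 2 h is such a shared value.

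Median narrow cover without the first 2000 bp was 82.0% at 0 min and 100% at 30 min. With peaks above the median fold it was 79.4% (0 min), 92.1% (30 min) and 81.0% (4 h). Median broad cover was 0%, 12%, 48.4%, 19.0%, 5.64% and 0% from 0 min to 4 h. Without the first 500 bp it was 3.68% (0 min), 16.9% (10 min), 20.5% (30 min), 6.65% (2 h) and 5.73% (4 h). Without the first 2000 bp it was 8.86%, 46.7%, 12.9% and 1.97% at 10 min, 20 min, 30 min and 2 h. With peaks above the median fold those 4 values were 4.08%, 18.1%, 7.13% and 0.428%, and with equal numbers of peaks 8.31%, 26.5%, 12.4% and 4.28%.

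No paired analysis was possible because each group holds 1 library. With 1 library per time, depth and time cannot be told apart at 20 min, and a missing peak is a call below the cutoff, not a measured absence.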
